A study of Mus musculus with 6 samples.

Results

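The response to hydrogen peroxide of mouse embryonic fibroblasts carrying a helicase deletion in Wrn was read from 2 two-colour arrays, of 6 arrays in the series. Both were chosen by their titles, which name treated mutant cells against untreated mutant cells. Fibroblasts are connective tissue cells, here primary cells grown from minced embryos, which the labels place at day 15 of gestation. The mutation, present in treated and untreated cells alike, removes a stretch of the Wrn helicase domain without shifting the reading frame, and was carried on a mixed 129/Sv and Black Swiss background. Treated cells received 0.5 mM H2O2 for 1 hour, were then given fresh medium, and their RNA was taken 24 hours later. On each array the RNA of treated cells carried the red dye Cy5 and the RNA of untreated cells the green dye Cy3, and the labels call the pair biological replicates. The cells are a mixed primary culture, and how many embryos each replicate came from is not given in the sources used here. The comparison asks which mRNAs differ a day after a short oxidative stress in cells whose Wrn helicase is defective. The other 4 arrays compared treated with untreated wild type cells (2 arrays) and untreated cells of the genotypes with each other (2 arrays), with no allele or agent beyond those named.

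Wrn is a RecQ helicase that acts in DNA repair and replication, and its loss in humans causes Werner syndrome, a disease of early ageing. Hydrogen peroxide oxidises DNA, proteins and lipids, and cells meet it on several fronts. The transcription factor NRF2 turns on detoxifying and antioxidant enzymes, p53 turns on genes of arrest and cell death after DNA damage, and ATF4 turns on genes of amino acid supply when translation is restrained by stress. Cells that stop dividing lower the mRNAs of mitosis and of the histones made in S phase.

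Values are log2 ratios of Cy5 over Cy3 after subtraction of the local background and loess normalization within each array, so a positive value means more signal from treated cells. Each gene is represented by its brightest probe, and array 1 comes before array 2 wherever a pair of values is printed. In all 28852 genes had a value, and 11260 of them had a mean log2 intensity above 6, the minimum of the study's methods. Software flagged 0.400% of the spots as outliers on array 1 and 8.81% on array 2, and those spots were left out, which is why some genes have a value on array 1 alone. Where a flagged spot is the only reading at hand, its value is printed and called flagged. The Cy5 signal was well above background for 55.2% and 41.5% of the probes, against 75.8% and 87.0% for Cy3. Over the 11145 probes above intensity 6 with a value on both arrays the log2 ratios of the arrays correlated with r = 0.835, a description across probes. All 9 fibroblast markers measured (Col1a1, Vim and Thy1 among them) lay above intensity 6, as did 3 of 10 macrophage, 0 of 7 endothelial, 0 of 7 mast cell, 1 of 7 epithelial, 2 of 7 neural, 2 of 5 adipocyte, 5 of 7 cartilage and bone and 6 of 11 skeletal muscle markers. The 4 Wrn probes had mean log2 intensities of 5.5 or less and ratios between -0.46 and 0.28, and since their place relative to the deletion is not given in the sources used here they check nothing about the genotype.

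A gene was taken as higher or lower when its main probe was at least 2-fold off on both arrays and every other probe of the gene had the same sign at each value. By this rule 22 genes were higher (0.195% of the 11260) and 161 were lower (1.43%), whereas with median centring in place of loess, which moved the median of all genes above intensity 6 from 0.01 to 0.73, 340 were higher and 42 lower. With the dye ratio of mutant RNA subtracted, a correction described below, 262 were higher and 65 lower. The mean log2 ratios ran from 1.07 to 2.27 on the higher side and from -1.02 to -4.29 on the lower. Of the 161, 120 had a RefSeq symbol, 41 had a name of the array's design alone, and 24 had the treated channel well above background on 1 array of 2. The SD between the arrays had a median of 0.12 for the higher genes and 0.16 for the lower ones. In the fit of all 6 arrays by limma, a linear model that shares its estimate of the spread across probes, at a fold change of 2, intensity above 6 and an adjusted p under 0.005, 0 genes were called (0% of 28852), and the lowest adjusted p of any probe was 0.118, while an unadjusted p under 0.05 was reached by 1873 genes on the higher side (6.49%) and 1806 on the lower (6.26%). Fitted on the 2 mutant arrays alone, limma called 72 genes higher (0.25%) and 511 lower (1.77%), and on the 4 treatment arrays 54 higher (0.187%) and 426 lower (1.48%). These fits also took probes with a value on 1 mutant array alone, and a call of such a probe rests on that array. Above intensity 6, 35 genes had a probe at least 2-fold higher on both mutant arrays and 278 one at least 2-fold lower. The 2-array fit called all 22 and all 161 genes of the both-array rule, and the 4-array fit 22 and 156. This overlap was largely set in advance, because the rule and the fits used the same ratios at the same 2-fold cut. Because the call depends on which arrays share the estimate of the spread, the genes below are described by their values, with the adjusted p of the 2-array fit where it is given.

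**Figure D1:**
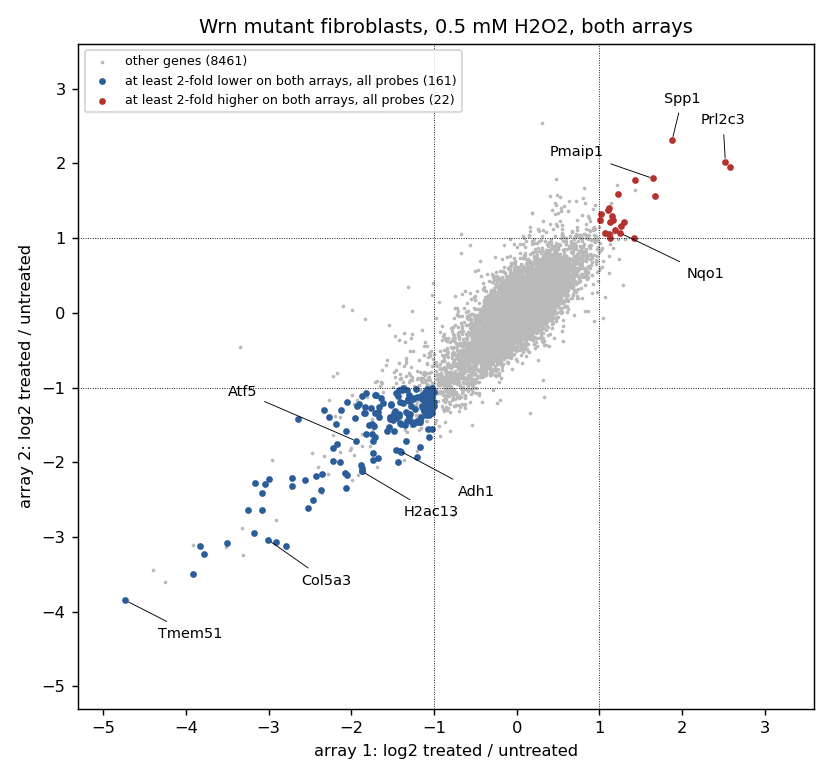
Log2 ratio of treated over untreated mutant cells on array 1 (horizontal) and array 2 (vertical), one point per gene above a mean log2 intensity of 6 with a value on both arrays; dotted lines mark 2-fold. The 22 genes higher on both arrays (red) lie in the upper right corner and the 161 lower ones (blue) extend to Tmem51 at -4.73 and -3.85 in the lower left.

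The threshold cut through a continuum. The last gene inside on the higher side was Xdh, xanthine dehydrogenase, at 1.42 and 1.00, and the first outside was Frmd8 at 0.995 and 1.15. Another 129 genes had some probe past 2-fold on both arrays and failed the rule, 28 of them with another probe that pointed the other way on both arrays. Fgfr4, a receptor for fibroblast growth factors, was an example, with -2.91 and -2.77 by its brightest probe and 0.38 and 0.07 by one whose Cy5 was not well above background. Pou4f2, a neural transcription factor, read -1.21 and -1.85 by its brightest probe but 0.18 on both arrays by the other. C330007P06Rik read -1.02 and -1.23 by the brightest of its probes and 0.64 and 0.76 by the next.

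Dye and treatment run together on both arrays, since no mutant array had the dyes exchanged. A ratio of Cy5 to Cy3 with untreated RNA in both dyes was therefore taken across arrays. It used channel means over the arrays with a value, so a disagreement between arrays does not show in it. For this the Cy5 channel of the untreated arrays was set against the Cy3 channel of the mutant arrays, which gives a dye ratio of mutant RNA if the mutant carried Cy5 on the untreated arrays, or against the Cy3 channel of the wild type arrays, which gives a dye ratio of wild type RNA if the wild type carried it. The labels name wild type as Cy5. Over 233 probes with a genotype difference of at least 2 in Cy3, however, the untreated ratio correlated at r = 0.960 with mutant minus wild type and had its sign for 95.3% of them, so the values go against that label and both readings are given. If the mutant carried Cy5, the wild type reading also holds the genotype difference of untreated cells and is not a dye ratio alone. If the wild type carried it, the same is true of the mutant reading. The mutant reading shares its Cy3 channel with the treated ratios.

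For the 22 higher genes the dye ratio of mutant RNA had a median of 0.02 and was 1 or more for 0 of them. Subtracting it left a median of 1.29, with 17 of 22 still at 1 or more and 0 turned. For the 161 lower genes it had a median of -1.23 and was -1 or less for 96, against 5.85% of all genes above intensity 6. Subtracting it left a median of -0.28, with 29 of 161 still at -1 or less and 41 turned to the other side. Under the wild type reading 7 of 22 higher and 66 of 147 lower genes turned. Under that reading the dye ratio itself was past 2-fold, in the direction of the treated ratio, for 9 of 22 higher genes (6.53% of all genes above intensity 6) and 100 of 147 lower genes (15.9%). What part the dyes had in the ratios was not tested.

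**Figure D2:**
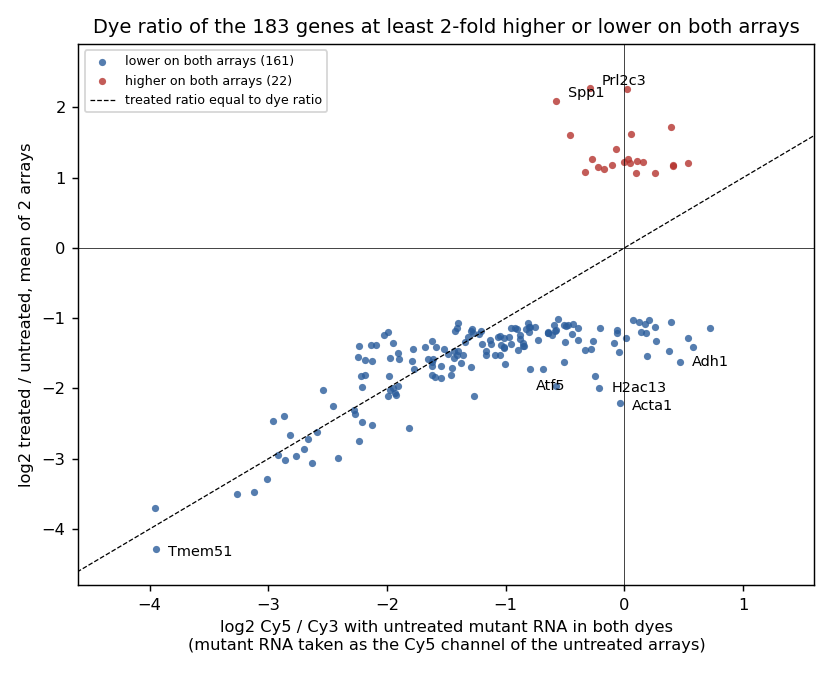
Mean log2 ratio of treated over untreated mutant cells (vertical) against the log2 ratio of Cy5 over Cy3 with untreated mutant RNA in both dyes (horizontal) for the 22 higher and 161 lower genes, with the line of equality dashed; both axes share the Cy3 channel of the mutant arrays. The higher genes (red) gather around a dye ratio of 0.02, and the lower genes (blue) spread from the line of equality (Tmem51) to dye ratios near 0 (H2ac13, Acta1).

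The proliferins, prolactin-like growth factors secreted by growing fibroblasts and placenta, had the largest mean ratios among the 22, though not under the wild type reading of the dye ratio, where their median was -0.31. Prl2c3 read 2.52 and 2.02, a mean of 2.27 ± 0.35 (SD, n = 2) or 4.83-fold, and its other probes read 2.89 and 2.17, and 2.43 and 1.63. Prl2c5 read 2.58 and 1.95 (4.80-fold). The lowest reading of any probe was 1.63. The adjusted p of limma on the 2 arrays was 4.2e-08 for Prl2c3 and 7.2e-08 for Prl2c5. In wild type cells the same probes read 3.37 and 2.80 for Prl2c3 and 3.80 and 4.27 for Prl2c5. The mutant response of Prl2c5 was lower than the wild type one by a limma difference of -1.77 (SE 0.33), with an adjusted p of 0.47 over 6 arrays and 0.0086 over the 4 treatment arrays. The dye ratio of mutant RNA was -0.29 for Prl2c3 and 0.02 for Prl2c5, but that of wild type RNA was 2.10 and 3.07, so under the label's reading Prl2c3 was left at 0.17 and Prl2c5 at -0.80.

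The promoters of the pair are alike. Whether their probes read each other's transcripts was not tested. RefSeq windows of 250 bases before and 50 bases after the start, build GRCm38.p6, lie at chr13:12800030-12800329 (- strand) and chr13:13182466-13182765 (+ strand). Aligned end to end, 287 bases matched, 12 differed and 2 had no partner. They are printed in lower case, 5′ to 3′.
Prl2c3: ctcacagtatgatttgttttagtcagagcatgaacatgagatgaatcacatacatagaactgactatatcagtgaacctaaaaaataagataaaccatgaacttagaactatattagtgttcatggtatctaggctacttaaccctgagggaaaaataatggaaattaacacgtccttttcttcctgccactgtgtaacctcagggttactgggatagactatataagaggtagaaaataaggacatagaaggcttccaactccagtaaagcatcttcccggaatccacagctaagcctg
Prl2c5: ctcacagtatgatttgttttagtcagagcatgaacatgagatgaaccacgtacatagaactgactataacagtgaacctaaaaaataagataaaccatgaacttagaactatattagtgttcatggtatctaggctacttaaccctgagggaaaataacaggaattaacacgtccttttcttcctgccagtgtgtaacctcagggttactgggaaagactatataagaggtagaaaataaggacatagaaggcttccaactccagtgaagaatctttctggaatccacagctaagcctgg

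Other secreted proteins were higher too. Spp1, the matrix phosphoprotein osteopontin, read 1.88 and 2.31 (4.27-fold), and -0.26 and 0.24 in wild type cells, where the sign was not shared by the arrays. The limma difference was 2.11 (SE 0.30), with an adjusted p of 0.42 over 6 arrays and 0.0021 over 4. Spp1, and Ltbp2 described next, were also among the genes picked for the size of this difference. Ltbp2, a microfibril protein related to the binders of latent TGF-beta, read 1.02 and 1.33 in mutant and -1.43 and -1.05 in wild type cells, so the genotypes lay on opposite sides of 0. Its difference was 2.41 (SE 0.33; limma adjusted p 0.30 over 6 arrays, 0.00061 over 4), and its second, dimmer probe read 0.28 and 0.48. Kitl, the ligand of the receptor Kit, read 1.11 and 1.37 (0.17 and 0.74 by a dimmer probe), the hormone gene Insl3 read 1.27 and 1.17, and Nrn1, a secreted neuronal growth protein, read 1.30 and 1.22. Subtracting the dye ratio of wild type RNA turned these 3 to -1.06, -1.37 and -0.48 in that order. Ctsl, a lysosomal protease, read 1.22 and 1.59. Among the 12 genes with the highest means were also Arhgap6, a GTPase-activating protein (1.43 and 1.78), Dpy19l1, of a family of C-mannosyltransferases (1.12 and 1.41, but 0.03 and 0.22 by a dimmer probe), and 1700063H04Rik (1.15 and 1.30). Of the other higher genes, those outside the lists described below were Xdh, given above, Cep170b, Lhfpl5, Prss50, the chromatin protein Hmga2, the carbonyl reductase Dcxr and Gch1, which starts tetrahydrobiopterin synthesis, with means from 1.07 to 1.21.

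Of 22 p53 targets measured, 2 were higher by the both-array rule (0.195% of genes above intensity 6) and 0 lower. The median log2 ratio was 0.35 (wild type 0.32) against 0.015 over all genes. An unadjusted p under 0.05 was reached by 8 on the higher side (all genes 6.49%) and by 1 on the lower (6.26%). The 2-array fit called 4 higher (0.25%) and 2 lower (1.77%). Pmaip1, the cell death protein Noxa, read 1.65 and 1.80 (3.30-fold, adjusted p 6.4e-07 by limma on the 2 arrays), and 1.30 and, flagged, 1.18 in wild type cells. Ccng1, cyclin G1, read 1.68 and 1.56 by one probe and 1.26 and 1.01 by the other. In wild type cells Ccng1 read 0.36 and, flagged, 0.49 by its main probe, and the difference of 1.26 (SE 0.38) had a limma adjusted p of 0.76 over 6 arrays and 0.033 over 4. Mdm2, which marks p53 for degradation, read 1.57 on array 1, was flagged on array 2 (1.41 if kept), and read 0.95 and 1.11 by another probe. In wild type cells its main probe, flagged on both arrays, read 1.20 and 0.94, and the other probe -0.08 and, flagged, -0.14. Cdkn1a, the cyclin-dependent kinase inhibitor p21, read 0.67 and 0.62 (wild type 0.52 and, flagged, 0.49).

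Other members spread around these. Trp53inp1, a p53-inducible nuclear protein, read 1.43 and 1.64 by its brightest probe, though its probes did not share a sign. Fas, the death receptor, read 1.36 and 0.85 at an intensity below 6, and Eda2r, a receptor of the TNF family, 0.85 and 0.76. On the lower side Sesn2, a stress-induced regulator of growth signalling, read -2.82 on array 1 beside a dye ratio of mutant RNA of -2.49, and Bbc3, the cell death protein Puma, read -1.13 there beside a dye ratio of -0.96. The median of the p53 targets was 0.15 after the dye ratio of mutant RNA was subtracted.

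Genes of mitosis lay mostly above 0 by small amounts. Of 47 measured, 36 had a value on both arrays, and 29 of these were above 0 on both (all genes 36.8%) and 0 below 0 on both (32.1%). The median was 0.50, 0.61 on array 1 and 0.39 on array 2, and over the alternatives computed it ran from 0.35 to 1.30. An unadjusted p under 0.05 was reached by 20 on the higher and 0 on the lower side, whereas the 2-array fit called 2 higher (0.25% of all genes) and the both-array rule found 1. Pttg1, securin, which keeps sister chromatids from separating before anaphase, was the member past 2-fold on both arrays, at 1.12 and 1.01. Ccnb2, a B-type cyclin that drives entry into mitosis, read 1.13 and 0.92, and Ccnb1 read 0.95 and 0.69 by its main probe, with its other probes at 0.91 and 0.46 and at 1.07 and 0.76. Cdc20, which activates the anaphase-promoting complex, read 0.69 and 0.40. In wild type cells the median of the list was 0.35, so the responses had the same sign.

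Replication genes did not share this. Of 49 measured 0 passed the both-array rule, the median was 0.07 (-0.11 to 0.74 over the alternatives), and 16 of 39 with both values were above 0 on both arrays and 7 below on both. Pcna, the sliding clamp of DNA polymerase, read 0.22 on array 1 (-0.05 on array 2 if its flagged spot was kept). The wild type median was 0.54. Whether the lists differed from each other was not tested.

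The promoter of a mitotic gene typically joins CCAAT boxes, bound by NF-Y, to a cell cycle homology region, TTTGAA, read by complexes that repress these genes outside G2 and M phase. On either strand TTTGAA stood in 28 of the 39 mitosis genes with a window (71.8%) and in 18.1% of all 27025 windows, and CCAAT in 31 (79.5%) against 37.9%. Among the 17 with a window that were higher at an unadjusted p under 0.05, TTTGAA stood in 9 (52.9%) and CCAAT in 13 (76.5%). This list was searched after its values were seen. The window of Pttg1, the member past 2-fold on both arrays, held neither motif. The windows of Ccnb2, chr9:70421505-70421804 (- strand), and Cdca3, a mitotic regulator that read 1.01 and 0.60, chr6:124829926-124830225 (+ strand), are shown with both motifs in capitals; Ccnb2 held 2 matches to TTTGAA and 3 to CCAAT, Cdca3 held 1 and 3.
Ccnb2: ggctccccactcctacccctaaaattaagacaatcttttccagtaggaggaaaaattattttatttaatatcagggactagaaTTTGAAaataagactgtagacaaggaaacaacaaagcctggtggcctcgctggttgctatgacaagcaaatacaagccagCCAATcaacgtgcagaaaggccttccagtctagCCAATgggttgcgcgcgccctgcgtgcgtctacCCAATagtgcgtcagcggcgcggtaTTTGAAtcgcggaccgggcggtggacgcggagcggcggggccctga
Cdca3: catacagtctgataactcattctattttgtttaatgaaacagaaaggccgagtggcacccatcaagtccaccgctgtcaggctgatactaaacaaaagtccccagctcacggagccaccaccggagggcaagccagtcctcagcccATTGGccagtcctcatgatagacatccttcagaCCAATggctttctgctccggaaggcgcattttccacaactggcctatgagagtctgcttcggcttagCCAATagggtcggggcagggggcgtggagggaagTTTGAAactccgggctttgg

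Histone genes were the list with the most members past 2-fold on the lower side. Of 44 measured, 7 were lower by the both-array rule and 0 higher, against 1.43% and 0.195% of genes above intensity 6. Below 0 on both arrays were 21 of the 33 with both values, above 0 on both were 8, and the 2-array fit called 11 lower (1.77% of all genes) and 0 higher. The median was -0.45 (wild type -0.54), -0.18 after subtraction of the dye ratio of mutant RNA, but 0.62 after subtraction of that of wild type RNA, and 0.02 with median centring, where all genes above intensity 6 had a median of 0.73. These proteins package DNA, and the mRNAs of the replication-dependent ones are made in S phase.

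H1f1, a linker histone, had the lowest mean of the list, at -3.17 and -2.28 beside a dye ratio of mutant RNA of -2.67. The next were the H2A genes H2ac13 and H2ac15. H2ac13 read -1.87 and -2.12 (3.99-fold lower, limma adjusted p 1.1e-07 on the 2 arrays) with a dye ratio of mutant RNA of -0.21. H2ac15 read -1.88 and -2.04 (dye ratio -0.58) and H2ac1 -1.47 and -1.41 (-0.28). Copies of H2A are near-identical, so a probe may read several of them. On the other side H2bc4, an H2B gene, read 0.68 and 0.69. In wild type cells H2ac13 read -1.34 and -1.12 and H2ac15 -1.67 and -1.44, each second value flagged, and neither difference between the genotypes passed (limma adjusted p over 4 arrays 0.21 and 0.59).

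CCAAT is the motif these promoters have in common. It stood on either strand in 33 of 39 histone windows (84.6%), and in all 6 windows found for the 7 lower genes, against 37.9% of all windows. The windows of H2ac13, chr13:21716162-21716461 (+ strand), H2ac15, chr13:21753863-21754162 (- strand), and H2ac1, chr13:23934187-23934486 (+ strand), are shown with it in capitals, 4, 3 and 4 matches in that order.
H2ac13: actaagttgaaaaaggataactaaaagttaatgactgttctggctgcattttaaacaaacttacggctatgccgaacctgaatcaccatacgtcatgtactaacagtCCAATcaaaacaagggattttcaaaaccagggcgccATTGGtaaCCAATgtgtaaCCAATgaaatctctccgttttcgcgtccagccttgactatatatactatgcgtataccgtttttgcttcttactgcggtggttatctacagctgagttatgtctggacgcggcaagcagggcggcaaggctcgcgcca
H2ac15: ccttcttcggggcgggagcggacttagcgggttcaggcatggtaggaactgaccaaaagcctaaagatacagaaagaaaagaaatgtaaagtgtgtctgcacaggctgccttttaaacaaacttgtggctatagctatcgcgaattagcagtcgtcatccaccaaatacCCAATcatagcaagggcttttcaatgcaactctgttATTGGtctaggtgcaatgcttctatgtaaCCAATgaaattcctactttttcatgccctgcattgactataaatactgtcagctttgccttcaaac
H2ac1: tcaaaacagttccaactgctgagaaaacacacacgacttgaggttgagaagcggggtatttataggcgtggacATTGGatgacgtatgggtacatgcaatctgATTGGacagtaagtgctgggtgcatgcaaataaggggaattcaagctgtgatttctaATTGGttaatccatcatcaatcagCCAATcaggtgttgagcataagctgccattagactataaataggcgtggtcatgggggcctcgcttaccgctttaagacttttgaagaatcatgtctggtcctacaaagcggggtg

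Targets of ATF4 had a median below 0 in mutant and above 0 in wild type cells, except with median centring, where the mutant median was also above 0. Of 28 measured, 13 of the 17 with both values were below 0 on both mutant arrays and 4 above on both. The median was -0.55, against 0.90 in wild type cells, and -0.65 after subtraction of the dye ratio of mutant RNA. With median centring it was 0.12, which is -0.60 relative to the median of all genes above intensity 6. Of the list 1 member, Cebpb, passed the both-array rule, 13 had an unadjusted p under 0.05 on the lower side (all genes 6.26%) and 0 on the higher, and the 2-array fit called 9 lower (1.77%) and 0 higher. Array 1 carried more of this than array 2, with medians of -0.61 and -0.25, and with flagged spots kept the median over both was -0.65.

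Trib3, a pseudokinase induced by stress, read -2.38 on array 1 (flagged on array 2, -1.58) and 3.42 and 2.71 in wild type cells. The limma difference, -5.44 (SE 0.41), had an adjusted p of 0.18 over 6 arrays and 0.00012 over the 4 treatment arrays, and a dimmer probe read -1.14 and -0.93 against 0.72 and 0.45. Chac1, which breaks down glutathione, read -1.03 and -0.50 against 3.37 and 2.95, a difference of -3.93 (SE 0.31; adjusted p 0.16 and 0.00011). Ddit3, the transcription factor CHOP, read -1.08 and -0.95 against 1.57 (flagged) and 1.33. Each of the 3 genes lay below 0 in mutant and above 0 in wild type cells on every array. The difference compares treatment within each genotype, so it holds any difference between the untreated cells as well, whose part was not tested. On the untreated arrays Cy5 over Cy3 read 2.64 and 2.07 for Chac1. It read 4.90 for Trib3 and 2.37 for Ddit3, each on the array with a value. Taken alone, these values mean more RNA in untreated mutant cells if the mutant carried Cy5, and less if the wild type did. The Cy3 channels of the treatment arrays do not depend on that label. The dye ratios of wild type and mutant RNA share their Cy5 and differ in this Cy3 alone. They were 4.09 and 0.42 for Trib3, 1.91 and 0.61 for Chac1, and 1.64 and -0.48 for Ddit3. Untreated mutant cells thus had the higher Cy3 signal for these 3 genes, compared across arrays. Treated RNA carried Cy5 in both genotypes.

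The transcription factors and enzymes around them read as follows. Atf5, a relative of Atf4 with the same kind of translational control, read -1.94 and -1.71 (3.55-fold lower, adjusted p 3.3e-07 on the 2 arrays) and -0.41 and 0.01 in wild type cells. Atf5 was named for the size of its difference from the wild type response. Cebpb, a transcription factor that pairs with ATF4, read -1.40 and -1.49, beside a dye ratio of -0.89, and the flagged spots of its other probe read -0.12 and -0.03. The probe of Atf4 was flagged on both arrays, at -0.78 and -1.01. Mthfd2, an enzyme of mitochondrial one-carbon metabolism, read -0.79 and -0.84 against 1.34 and 1.11, and Nupr1, a stress-induced chromatin protein, -0.64 and -0.81. Asns, asparagine synthetase, and Slc7a5, an amino acid transporter, had values on array 1 alone, -1.06 and -1.46. Slc7a4, of a family of amino acid transporters and named after its values were seen, read -1.08 and -1.02 against 0.91 and 1.13.

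Aminoacyl-tRNA synthetases, which charge tRNAs with amino acids, lay on the same side. Below 0 on both arrays were 12 of the 13 with both values (all genes 32.1%) and above 0 on both 0, with a median of -0.41 (0.38 with median centring) against 0.19 in wild type cells. Sars, for serine, read -1.09 and -1.04 against 0.50 and 0.55 (flagged) and was the 1 member past 2-fold on both mutant arrays. Its limma difference of -1.56 (SE 0.29) had an adjusted p of 0.54 over 6 arrays and 0.014 over 4.

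**Figure D3:**
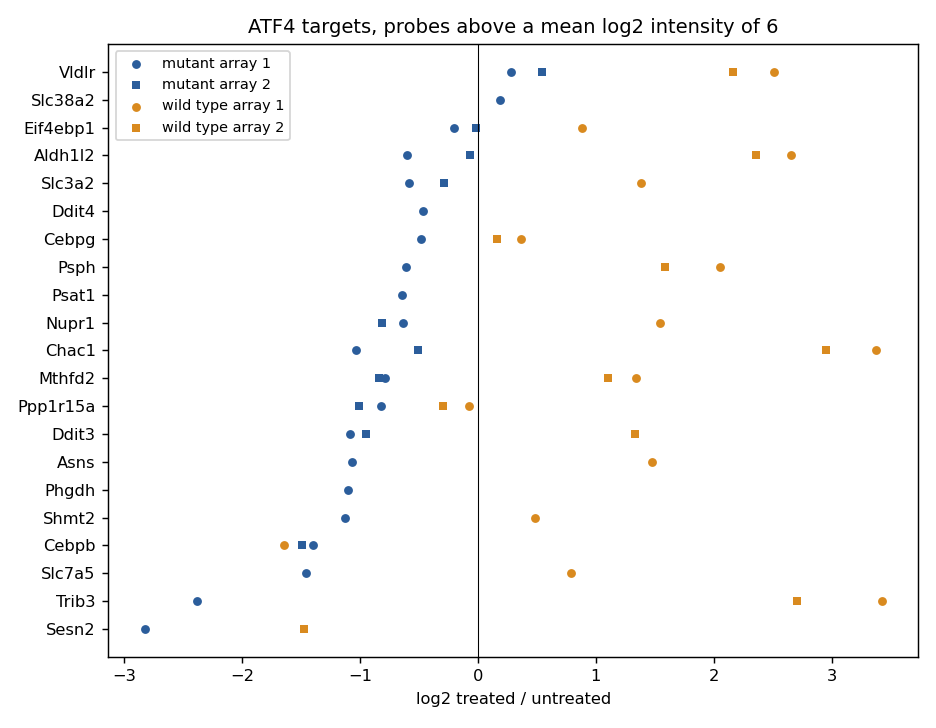
Log2 ratio of treated over untreated cells for ATF4 targets with a mean log2 intensity above 6, on the mutant arrays (blue) and the wild type arrays (orange), array 1 as circles and array 2 as squares; a missing symbol is a flagged spot. Trib3, Chac1, Ddit3 and Mthfd2 lie left of 0 in mutant and right of 0 in wild type cells, whereas Cebpb and Sesn2 lie left of 0 in both.

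ATF4 and its partners bind a composite element joining a C/EBP site to an ATF site, searched here as TGATGNAA on both strands. It stood in 7 of the 24 list members with a window (29.2%), against 4.06% of all windows; this list too was searched after its values were seen. The windows of 3 members that hold 1 match each, in capitals, are those of Trib3, chr2:152344011-152344310 (- strand), Chac1, chr2:119350992-119351291 (+ strand), and Asns, chr6:7693160-7693459 (- strand).
Trib3: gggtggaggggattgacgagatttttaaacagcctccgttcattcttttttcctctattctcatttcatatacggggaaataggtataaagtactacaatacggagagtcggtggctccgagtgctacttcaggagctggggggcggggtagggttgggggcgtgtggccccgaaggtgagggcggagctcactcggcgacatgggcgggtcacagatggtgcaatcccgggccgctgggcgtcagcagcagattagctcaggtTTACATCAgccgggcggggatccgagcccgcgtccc
Chac1: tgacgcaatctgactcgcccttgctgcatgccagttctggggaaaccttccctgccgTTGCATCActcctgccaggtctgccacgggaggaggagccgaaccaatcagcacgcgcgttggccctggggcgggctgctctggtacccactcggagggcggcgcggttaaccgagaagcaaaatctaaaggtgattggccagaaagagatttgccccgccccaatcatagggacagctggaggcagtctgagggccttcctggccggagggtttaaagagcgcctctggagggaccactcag
Asns: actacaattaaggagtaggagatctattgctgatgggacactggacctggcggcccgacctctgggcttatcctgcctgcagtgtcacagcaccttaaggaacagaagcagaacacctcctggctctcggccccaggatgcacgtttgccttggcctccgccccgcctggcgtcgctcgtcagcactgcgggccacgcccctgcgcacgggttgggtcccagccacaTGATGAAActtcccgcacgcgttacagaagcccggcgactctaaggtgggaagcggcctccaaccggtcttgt

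NRF2 targets had 1 of 26 measured members higher by the both-array rule (0.195% of genes above intensity 6) and 0 lower. An unadjusted p under 0.05 was reached by 7 on the higher side (all genes 6.49%) and 2 on the lower (6.26%), 11 of 20 were above 0 on both arrays (36.8%) and 7 below on both (32.1%), and the median was 0.10 (wild type 0.50), which turned to -0.15 when the dye ratio of wild type RNA was subtracted. Nqo1, a quinone reductase, was the 1 member past 2-fold, at 1.25 and 1.07 (wild type 1.61 and, flagged, 1.23), but at -1.02 after subtraction of the dye ratio of wild type RNA. The glutathione synthesis subunit Gclm read 0.12 and 0.11, the peroxiredoxin repair enzyme Srxn1 0.12 and -0.04, and thioredoxin reductase Txnrd1 0.40 and 0.32 (wild type 1.05 and, flagged, 1.03). Hmox1, heme oxygenase, read -0.68 and 0.80, so its arrays disagreed in sign. Of the pentose phosphate enzymes, G6pdx read 0.66 and 0.48 and Taldo1 0.64 and 0.74. Enzymes that remove peroxide and superoxide had a median of 0.13, with 0 of 18 past 2-fold in either direction.

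Metallothioneins, which bind zinc and other metals, lay on opposite sides of 0 in the genotypes, though with median centring the mutant median of their list was 0.35. Mt1 read -0.77 and -0.57 in mutant and 0.97 and 1.37 in wild type cells, and Mt2 -0.55 and -0.28 against 1.79 and 2.19, the second wild type value of each flagged. The limma adjusted p of the difference was 0.72 and 0.37 over 6 arrays, and 0.013 and 0.0038 over 4. A dimmer Mt1 probe read 0.34 and 0.11. On the untreated arrays Cy5 over Cy3 read 2.70 and 1.68 for Mt1 and 3.54 and 3.64 for Mt2 by the main probes. The dye ratios of wild type and mutant RNA were 1.63 and 0.18 for Mt1 and 2.79 and 0.47 for Mt2. Untreated Cy3 signal was thus higher in mutant cells for both, compared across arrays. Ero1a, an oxidase of the endoplasmic reticulum, read -0.76 and -0.88 against 0.23 and 0.54 by its main probe and -0.83 and -0.99 against 1.71 and 1.30 by the other. Uchl1, a ubiquitin hydrolase, read 0.11 and 0.12 against 2.04 and, flagged, 1.29.

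Cholesterol synthesis genes had a median below 0 in mutant and in wild type cells, except with median centring. Below 0 on both arrays were 15 of 18 genes with both values (all genes 32.1%) and above 0 on both 1, the median was -0.54 (wild type -1.17), -0.49 and -0.16 after subtraction of the dye ratios of mutant and wild type RNA, and 0.42 with median centring, -0.31 relative to all genes above intensity 6. Of 25 measured, 2 were lower by the both-array rule (1.43%), 11 had an unadjusted p under 0.05 on the lower side and 1 on the higher, and the 2-array fit called 4 lower (1.77%). Mvd, which makes isopentenyl pyrophosphate, read -1.17 and -1.46, and Ebp, a sterol isomerase, -1.001 and -1.06. Srebf2, the transcription factor of the pathway, read -1.07 and -0.87 beside a dye ratio of -1.09.

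Among 20 genes of glycolysis and glucose uptake 2 were lower by the both-array rule (1.43% of genes above intensity 6) and 0 higher (0.195%), with a median of -0.43 (0.31 with median centring). The median was -0.46 on array 1 and -0.23 on array 2. Of 13 genes with both values, 6 were below 0 on both (all genes 32.1%) and 4 above (36.8%). Pdk1, which restrains pyruvate dehydrogenase, read -1.16 and -1.40 (wild type -1.50 and -1.17) and Pfkl, the liver form of phosphofructokinase, -1.15 and -1.24 (wild type -1.41 and -1.28). Their dye ratios of mutant RNA were 0.54 and 0.14. Both genes thus had like values in the genotypes, the limma differences being 0.06 (SE 0.24) and 0.15 (SE 0.28).

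Contractile genes had a median of -0.33 (0.21 with median centring), -0.35 on array 1 and -0.05 on array 2. Of the 13 with both values, 7 were below 0 on both arrays (all genes 32.1%) and 4 above (36.8%). The 2-array fit called 9 of 21 lower (1.77% of all genes) and 0 higher, while 1 was lower by the both-array rule (1.43%). That member was Csrp1, a LIM protein of the actin cytoskeleton, at -1.01 and -1.20. Acta2, smooth muscle actin, read -1.21 on array 1 (flagged on array 2, -1.43) by its brightest probe, -1.30 and -1.23 by a dimmer one, and 0.44 and 0.06 by a probe whose Cy5 was not well above background. Acta1, skeletal muscle actin, named after its values were seen, read -2.06 and -2.35 with a dye ratio of -0.04. Actins are near-identical, so these probes may read each other's transcripts. Of the 11 skeletal muscle markers, to which Acta1 belongs, 4 were below 0 on both arrays and 4 above, and the muscle transcription factor Myog read 0.06 and 0.19. In RNA of whole cultures, fewer cells of a type and less RNA per cell cannot be told apart, and the part of muscle cells in these values was not tested.

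The largest negative ratios among the 161 came with dye ratios of like size. The genes with the lowest means whose channels were well above background on both arrays, and which are named next, all had a dye ratio of mutant RNA between -3.01 and -2.13. They were Gpr27, an orphan receptor (-3.50 and -3.08), Col5a3, a collagen V chain (-3.01 and -3.04), Nppb, B-type natriuretic peptide (-2.79 and -3.12), Prss33, H1f1, Pnpla5, Ltbp4, Olfr1036, Plin5, Smyd1 and Dhx8. Subtracting it left values from -0.51 to 0.50. The untreated arrays, whose Cy5 is averaged in the dye ratio, disagreed for these genes, the first reading lower than the second. Their Cy5 over Cy3 was -4.45 and -0.43 for Col5a3, -3.52 and -0.67 for Gpr27, and -1.84 and 0.73 for Ltbp4. It was closest for Nppb, at -3.83 and -2.55. The dye ratios of this group therefore lean on 1 untreated array. Second probes of Col5a3, at -0.93 and -0.47, Nppb, at -0.15 and -0.22, and Olfr1036, at -0.16 and -0.26, lay nearer 0. The second probe of Smyd1, in contrast, read -3.10 and -2.95. Tmem51, Snorc, Slc46a3, Wdr62 and Serpinb9c had the treated channel well above background on 1 array of 2. Their ratios, -4.73 and -3.85 for Tmem51 and -2.37 on both arrays for Serpinb9c, came with dye ratios of mutant RNA from -3.95 to -1.81. Wdr62 read -2.52 and -2.62 by its main probe but -0.23 and -0.16 by a second one. Col7a1, a collagen of anchoring fibrils, read -2.64 and -1.41, and Irx4, a developmental transcription factor, -1.12 and -1.15, with dye ratios of -1.98 and -0.93.

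Some lower genes had a dye ratio near or above 0 in mutant RNA, among them those named next. Adh1, Fibin and Rgs2 were named because their difference from the wild type response was among the largest by the limma contrast. That they read differently in wild type cells was thus set by the choice, and their adjusted p is no separate support. Adh1, an alcohol dehydrogenase that also oxidises retinol, read -1.42 and -1.84 by one probe and -1.32 and -1.75 by the other, against 0.50 and 0.72, and 0.55 and 0.82. Its limma difference was -2.24 (SE 0.27), with an adjusted p of 0.30 over 6 arrays and 0.00073 over 4. Fibin, a secreted protein of fin and limb buds, read -1.49 and -1.44 against 0.70 and 0.22 (difference -1.93, SE 0.27; limma adjusted p 0.32 over 6 arrays, 0.0021 over 4). Rgs2, which shortens G protein signalling, read -1.29 and -1.35 against -0.15 and 0.23. Cxcl12, the chemokine that binds Cxcr4, read -1.17 and -1.80 by one probe and -1.11 and -0.91 by the other, against 0.08 and 0.09 for the latter in wild type cells. The flagged wild type spots of its first probe read -0.82 and -0.78, on the same side as the mutant, so its probes disagree on the wild type response.

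Across the genes of the both-array rule, wild type values on both arrays were at hand for 14 higher and 56 lower genes. Of the 14, 9 were above 0 on both wild type arrays, 2 of them past 2-fold, and 3 were below 0 on both. Of the 56, 50 were below 0 on both, 31 of them past 2-fold, and 3 were above 0 on both. The difference between the genotypes passed an adjusted p of 0.05 for 0 probes in the 6-array fit (0% of 40267) and for 782 (1.94%) in the fit of the 4 treatment arrays, in which it did so for 10 of the 22 higher and 24 of the 161 lower genes.

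Several lists lay close to 0. With signs that changed under some alternatives, the median was 0.01 for 72 subunits of the respiratory chain and for 76 cytosolic ribosomal proteins, 0.05 for 39 proteasome subunits and 0.07 for 22 folding factors of the endoplasmic reticulum, with 0 past 2-fold on both arrays in each. Collagen chains had a median of -0.08 and the fibrillar Col1a1 read -0.12 and -0.01, while Fn1, fibronectin, read -0.23 and 0.28. Dimmer Col1a1 probes read -0.38 on array 1 alone, and -0.97 and -0.60, and a dimmer Fn1 probe read 0.01 and 0.73. Chemokines and other inflammatory mediators lay further from 0, with a median of 0.28 over 34 genes (0.04 to 0.48 over the alternatives), 19 above 0 on both arrays (all genes 36.8%) and 6 below (32.1%), and 9 with an unadjusted p under 0.05 on the higher side (6.49%) and 2 on the lower (6.26%). By the both-array rule 0 were higher and 1, Cxcl12, lower. Of the 10 MHC class II genes 0 were above intensity 6.

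**Figure D4:**
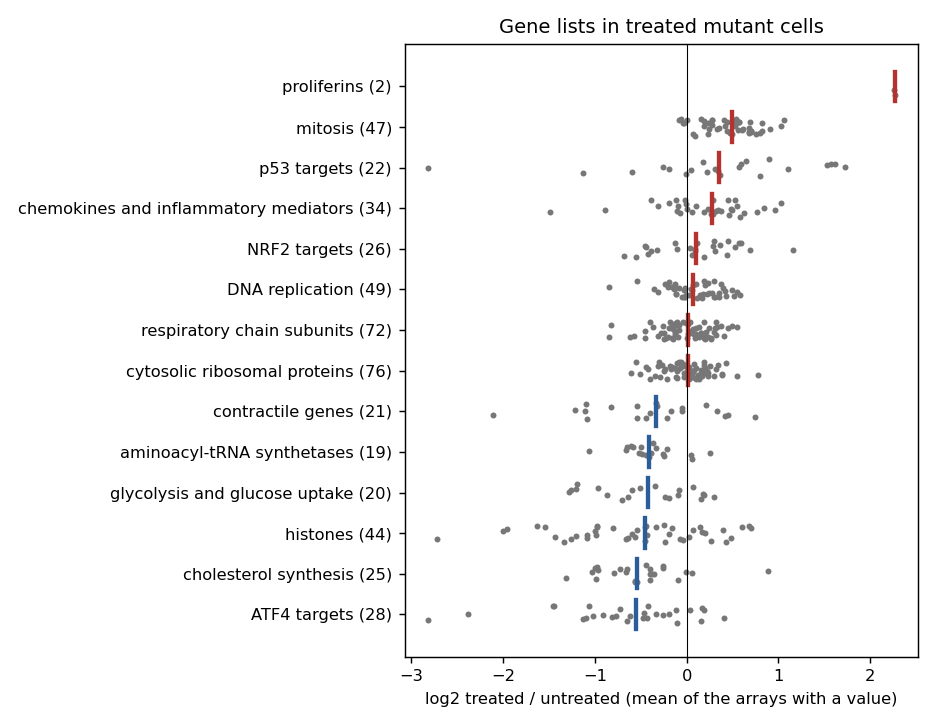
Mean log2 ratio of treated over untreated mutant cells for the genes of 14 lists (grey points, one per gene, number measured in parentheses) with the median of each list as a bar, red above and blue below 0. The proliferins and the mitosis list lie highest and the ATF4 targets, at a median of -0.55, lowest.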

How the data were processed

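RNA of the fibroblasts (total RNA by the labels, cytoplasmic RNA by the study's methods) was labelled with Cy3 or Cy5 and hybridised to Agilent whole mouse genome arrays, 1 file per array. The deposited intensity values are the scanner's mean spot and median local background signals, made by the authors with Feature Extraction, whose version differs between the file headers and the methods. The deposited log10 values are Feature Extraction's ratios of Cy5 over Cy3, and the authors' table of log2 ratios, background-subtracted and loess-normalized, was used as an alternative. It correlated with the ratios recomputed here at r = 0.999 or more on every array.

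Here the local background was subtracted and each array loess-normalized, with control spots at weight 0 in the loess and left out after it. Outlier spots were left out, saturated spots kept, and spots of a probe averaged, which left 41174 probes of 41534 spots. Probes were named through RefSeq by accession (20716), symbol (5039) or synonym (5279), and 10140 kept the array's name. One limma fit took all 6 arrays with 1 coefficient per comparison, and p-values were adjusted by Benjamini-Hochberg over all probes. It had 3 residual degrees of freedom and a prior of 4.18. Wild type and mutant arrays share replicate numbers 1 and 2, but the deviations of same-numbered arrays from their group means correlated at r = -0.0366 over 29913 probes, so the numbers were not taken to pair them.

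The text names the 12 genes with the highest means and the 12 with the lowest whose channels were above background on both arrays. It also names the 5 lower genes brightest in Cy3 whose treated channel was not, up to 4 members of each list in each direction, and a set chosen for their biology. Bright genes with probes of opposite sign were named as well. Spp1, Ltbp2, Adh1, Fibin, Rgs2 and Atf5 were picked for having the largest differences from the wild type response by the limma contrast. Some members of the lists and others marked so were named after their values were seen. Certain genes that these rules pick are not reported here. Members and lists were chosen with earlier results of these data known. Promoter windows span 250 bases before and 50 after a RefSeq start (GRCm38.p6).

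Alternatives covered the arrays fitted, outlier spots, background, normalization, the authors' values, filters, each array left out, the replicate block and both dye ratios, which come from channels after Aquantile normalization between arrays. The fits were tested on simulated data. The number of arrays limits the precision. R 4.3.3, limma 3.58.1, data.table version 1.17.8, Python 3.11.15, pandas 2.3.3 and matplotlib 3.10.9 were used.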

Additional observations from a re-analysis of the deposited data

Results flagged for a closer look

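Genes and a list whose response had one sign on both mutant arrays and the other on both wild type arrays were picked out. Only genes named by rule with a value on all 4 treatment arrays were searched. Trib3, Ddit3, Sars, Mt1 and Mt2 lacked such a value. Of the lists, only NRF2, ATF4 and p53 targets, mitosis, histones and cholesterol synthesis were searched, so metallothioneins and synthetases were not. Adh1, Fibin and Ltbp2 had been picked for the size of their difference. The ATF4 targets had array medians of -0.61 and -0.25 in mutant and 1.01 and 0.90 in wild type cells, and the means of these medians differed by -1.38, mutant minus wild type, a difference that was not tested. In the limma contrast Chac1 differed by -3.93 (adjusted p 0.159 over 6 arrays, 0.00011 over the 4 treatment arrays) and Adh1 by -2.24 (0.297 and 0.00073). Fibin differed by -1.93 (0.320 and 0.0021) and Ero1a by -1.21 (0.552 and 0.015). Ltbp2 went the other way, with a difference of 2.41 (0.297 and 0.00061). None of these 5 genes passed an adjusted p of 0.05 over the 6 arrays. Every group held 2 arrays, so no test for a single outlying array was made.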

How the results depend on the processing

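The count of calls, 0 in the fit of 6 arrays, was 582 in the fit of the 2 mutant arrays and 479 in that of the 4 treatment arrays, where 1 gene each counted in both directions by different probes. Leaving out one array in turn gave from 0 to 479, the latter without either untreated array, which leaves the 4-array fit because the array that remains adds no residual degree of freedom. The difference between the genotypes went from 0 to 782 probes in the 4-array fit, and from 0 to 782 over the arrays left out. With replicate number as a block both counts were 0, with lowest adjusted p-values of 0.677 and 1.00, and the block changed no call. Under the other alternatives both counts stayed 0. The calls after subtraction of a dye ratio were not run. The 22 higher and 161 lower genes became 10 and 74 with normexp, 340 and 42 with median centring, 48 higher with Feature Extraction's ratios, 950 and 411 after subtraction of the dye ratio of wild type RNA, 262 and 65 after that of mutant RNA, and 198 and 434 at a fold change of 1.5. Judged on 1 array they numbered 47 to 100 and 296 to 351. Median centring kept 20 and 38 of the original genes, and the mutant dye ratio 14 and 25. The median of NRF2 targets moved to 0.13 with outlier spots kept, 0.13 with the authors' values, 0.082 with normexp, 0.15 with Feature Extraction's ratios, 0.15 with both channels above background and 0.12 to 0.15 on single arrays. Median centring moved the medians of NRF2 targets to 1.09, ATF4 targets to 0.12, p53 targets to 1.22, mitosis to 1.16, histones to 0.018 and cholesterol synthesis to 0.42, beside 0.73 for all genes above intensity 6. The dye ratio of wild type RNA moved them to -0.15, -1.23, 0.64, 1.30, 0.62 and -0.16 in that order, and that of mutant RNA moved NRF2 targets to 0.14, p53 targets to 0.15 and histones to -0.18. With both channels above background histones were at -0.61. On single arrays, where the brightest probe with a value on that array stands for a gene and the probes can differ from those reported, ATF4 targets had medians of -0.61 to -0.27 (-0.61 and -0.25 by the reported probes), p53 targets 0.42 to 0.50 (0.50 and 0.25), mitosis 0.38 to 0.61, histones -0.48 to -0.33 and cholesterol synthesis -0.54 to -0.44. Subtracting the dye ratio of wild type RNA turned Prl2c5 to -0.80, Nrn1 to -0.48, Kitl to -1.06, Insl3 to -1.37, Nqo1 to -1.02, Gpr27 to 0.26, Nppb to 0.62, Smyd1 to 0.37, Serpinb9c to 0.51, Col7a1 to 0.096, Cxcl12, by its second probe, to 0.63 and Irx4 to 1.48, and that of mutant RNA turned Pnpla5 to 0.15, Plin5 to 0.50 and Smyd1 to 0.47; the cause was not tested. Cy5 was dim: 24 of the 161 lower genes had it well above background on 1 array of 2.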
